A study of Rattus norvegicus with 10 samples.

Results

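Muscle beneath the skin of rats with collagen-induced arthritis was compared after 34 days of acupuncture and after 34 days of placebo. Collagen-induced arthritis is a model of rheumatoid arthritis in which animals are immunised with bovine type II collagen in adjuvant. The comparison used 4 RNA-seq libraries, AP_34d replicates 1 and 2 and PLA_34d replicates 1 and 2, and each library came from a different female Wistar rat. Acupuncture (AP) was a thumb-tack needle that was inserted and twirled, and placebo (PLA) was an injection of sterile saline into the peritoneum, so the arms also differed in the site and kind of needle entry. All animals carried the disease, and all were shaved. The 6 other libraries of the series, a pair each from rats before therapy (RA_0) and from rats 1 h into acupuncture (AP_1h) or placebo (PLA_1h), served to estimate the spread and to show the levels elsewhere. The ages of the animals were not given. Transcripts were included when both AP_34d libraries or both PLA_34d libraries held at least 1 CPM, the unit of the deposited table, in which the authors scaled reads to a common library size with TMM factors. This left 9927 of 17221 transcripts. At the edge of this rule, the lower library of the better group held 1.01 CPM for Mok, the last transcript inside, and 0.995 CPM for Rbm47, the first outside.

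Skeletal muscle adjusts its mass and its fuel to use, hormones and inflammation. When muscle wastes, ubiquitin ligases such as Trim63 and Fbxo32 tag proteins for the proteasome, autophagy removes organelles, and FoxO transcription factors and glucocorticoids are known to drive these genes. When fat becomes the main fuel, Pdk4 closes the entry of glucose carbon into the mitochondrion, and Ucp3, Angptl4 and lipases of the lipid droplet are known to respond.

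The 4 libraries held 5842104 and 6325357 counted reads for AP_34d and 6817140 and 7364001 for PLA_34d. A count of 0 allows up to 0.586 and 0.448 CPM in the AP_34d libraries and 0.337 and 0.426 CPM in the PLA_34d libraries (3 reads, counting error only). Skeletal muscle markers summed to 237192 and 142619 CPM in AP_34d and to 100471 and 214989 CPM in PLA_34d, so every library was mainly muscle. PLA_34d replicate 1 stood apart. Its summed level of B cell and lymph node markers was 1311 CPM, against 32.6 to 85.4 CPM in the other 9 libraries, and its summed T cell level was 545 CPM, against 18.6 to 86.5 CPM. It also held the lowest summed muscle level of the 10 libraries. Keratinocyte markers stayed between 4.74 and 8.81 CPM and mammary markers between 2.70 and 15.9 CPM in all 10 libraries. In bulk tissue, fewer cells of a type and less RNA per cell cannot be told apart. Because of that library, changes were separated by the placebo animal they were seen against.

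No transcript passed the limma test. It called 0 of the 9927 (0.0%) at an adjusted p under 0.05, limma-voom and edgeR called 0 of the 10259 transcripts in the fit, and DESeq2 called 87. At an unadjusted p under 0.05, AP_34d was higher for 256 transcripts (2.58%) and lower for 297 (2.99%). The study counted a transcript as changed at an unadjusted p under 0.05 when its means differed at least 2-fold and averaged 1 CPM or more. By that rule 141 (1.42%) were higher and 219 (2.21%) lower. The balance depended on the scaling and the libraries. Of the 366 transcripts of the fit that met the rule, 38.8% were higher, while the share was 19.4% of 315 without TMM factors and 59.3% of 509 without AP_34d replicate 1. The number of calls turned on 1 placebo animal. With PLA_34d replicate 2 left out and replicate 1 as the sole placebo library, limma called 174 transcripts, of which 5 were higher under acupuncture, or 453 with the filter applied again. Without PLA_34d replicate 1 it called 0.

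A transcript was taken as apart from a placebo library when both AP_34d libraries lay on the same side of it, each by at least 1 on the log2(CPM + 1) scale. These classes were read from the same values as the differences, so they describe the libraries and were not tested. AP_34d was apart from both placebo animals for 46 transcripts that were higher (0.463%) and 31 that were lower (0.312%). It was apart from replicate 1 alone for 135 higher (1.36%) and 637 lower transcripts (6.42%), and from replicate 2 alone for 80 higher (0.806%) and 70 lower (0.705%). For 4 transcripts, Cotl1, Gpr183, Itgb2 and Prox1, AP_34d lay below replicate 1 and above replicate 2, and 8924 were apart from neither. The largest class was thus the one in which PLA_34d replicate 1 alone was high.

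**Figure D1:**
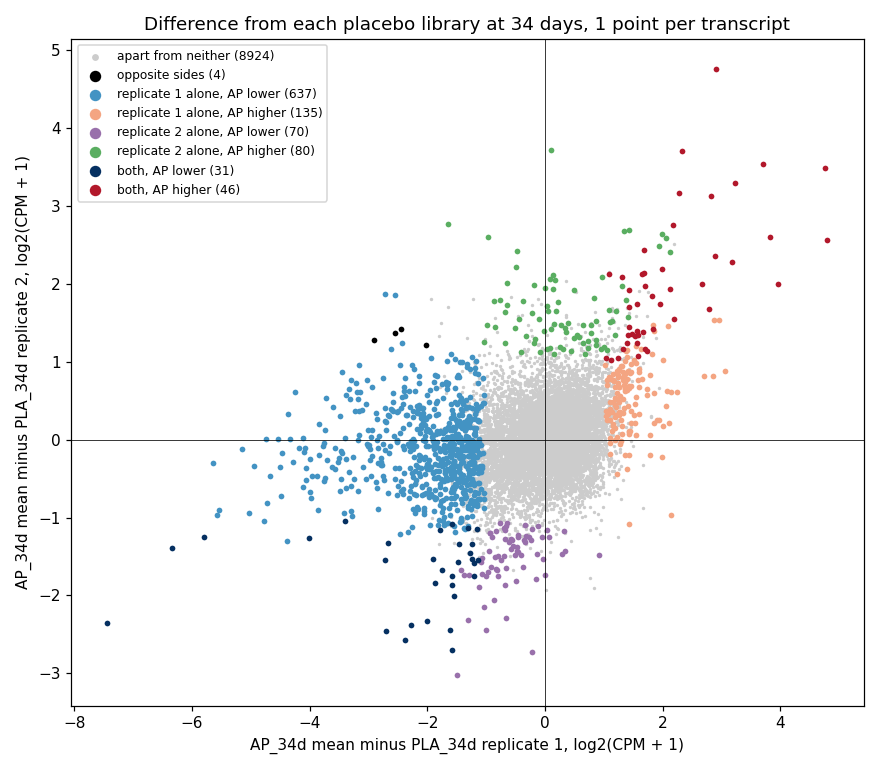
Each point is 1 of the 9927 transcripts, placed by the difference of the AP_34d mean from PLA_34d replicate 1 (horizontal) and from PLA_34d replicate 2 (vertical), both on the log2(CPM + 1) scale, and coloured by class. The broad arm to the left, at heights near 0, is the class of 637 transcripts that were high in placebo replicate 1 alone, while the 46 and 31 transcripts apart from both placebo animals lie at the upper right and lower left.

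Of the gene lists, the one for muscle protein breakdown had the most members, 6, among the transcripts that were higher than in both placebo animals. Trim63 (MuRF1, a ubiquitin ligase of sarcomere proteins; NM_080903, rn4 chromosome 5, 153059573 to 153073907) stood at 1375 and 2296 CPM in AP_34d and at 196 and 364 CPM in PLA_34d. Fbxo32 (atrogin-1, the substrate receptor of another muscle ubiquitin ligase; NM_133521, chromosome 7, 94909568 to 94942444) stood at 148 and 490.1 CPM against 37.1 and 29.9 CPM. In both genes each acupuncture animal lay well above each placebo animal, and the acupuncture animals differed from each other, most of all in Fbxo32. The log2 difference was 2.73 ± 0.61 (SE, n = 2 per group) for Trim63 and 2.98 ± 0.66 for Fbxo32, and neither passed (limma adjusted p 0.756 for both). DESeq2 called both, with an adjusted p of 0.00227 and 4.76e-04, the lowest of ranges that reached 1.00 over the alternatives.

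The lysosomal and autophagy arm of the same list was higher as well. Ctsl1, the lysosomal protease cathepsin L, stood at 598 and 938 CPM in AP_34d and at 107 and 234 CPM in PLA_34d, a log2 difference of 2.23 ± 0.59. Gabarapl1, a protein of the autophagosome membrane, stood at 575 and 415 CPM against 107 and 166 CPM. One transcript of Sqstm1 (NM_175843), which encodes the autophagy receptor p62, stood at 1405 and 1456 CPM against 440.2 and 635 CPM. For Gabarapl1 and Sqstm1 the AP_34d libraries were also above all 6 libraries of the other groups. Fbxo31, an F-box protein of a ubiquitin ligase, was lower in level, at 12.9 and 18.8 CPM against 5.16 and 5.12 CPM. None of these 4 passed (limma adjusted p 0.846 for each).

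Of 23 transcripts measured from the muscle atrophy list, 6 (26.1%), namely Trim63, Fbxo32, Ctsl1, Gabarapl1, Sqstm1 and Fbxo31, were higher than in both placebo animals, against 0.463% of all transcripts, 5 were higher than in replicate 1 alone and none was lower in any class. The 5 were Map1lc3a, Map1lc3b, Gadd45a, Eif4ebp1 and Cdkn1a. Foxo1, a transcription factor of this programme, was higher than in replicate 2 alone, at 46.9 and 42.9 CPM against 39.4 and 13.6 CPM. At an unadjusted p under 0.05, 8 of the 23 were higher and 0 lower, against 2.58% and 2.99% of all transcripts, and 0 passed the adjusted test. The median log2 difference of the list was 0.91, with 1.28 against replicate 1 and 0.62 against replicate 2, where the median of all 9927 transcripts was 0.01, 0.00 and 0.02. Both AP_34d libraries exceeded both placebo libraries in 14 of the 23, against 16.4% of all transcripts. The summed level of the list was 7314 and 8701 CPM in AP_34d and 2305 and 3828 CPM in PLA_34d, and ran from 3442 to 9069 CPM in the 6 other libraries. PLA_34d replicate 1 thus lay below all of these 6, while replicate 2 lay above both RA_0 libraries, at 3671 and 3442 CPM. Both acupuncture animals lay above all of the 6 except AP_1h replicate 1, at 9069 CPM, and AP_1h replicate 2 stood at 4335 CPM.

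The promoter of Trim63 is shown because, of the 34 promoters found for the 46 transcripts, it alone held a glucocorticoid response element (GRE) by the letters searched. Fbxo32 was among the transcripts without a promoter to search. Promoters were taken from the RefSeq table of build GRCr8, 250 bases before to 50 bases after the start of the gene, and 34 of the 46 transcripts matched a gene there. The 250 bases before the start of Trim63 (chr5:151816986-151817235, + strand) are printed 5′ to 3′ with the GRE (219 to 207 bases before the start) and a FoxO motif (GTAAACA, here on the opposite strand, 205 to 199 bases before the start) in capitals.
Trim63: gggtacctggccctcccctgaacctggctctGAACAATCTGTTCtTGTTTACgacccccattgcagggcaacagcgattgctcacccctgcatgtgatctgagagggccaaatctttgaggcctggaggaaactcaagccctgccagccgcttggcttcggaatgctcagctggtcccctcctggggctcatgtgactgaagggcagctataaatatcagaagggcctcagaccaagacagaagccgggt
With both strands searched, the FoxO letters stood in 5 of the 34 promoters (14.7%), those of Arntl, Gpnmb, Pnpla7, Tmem140 and Trim63. They stood in 2.352% of the 7569 promoters of included genes and in 4.126% of all 27457. The GRE letters stood in 0.251% and 0.4589% of these. In the 20 promoters matched among the 31 lower transcripts, neither motif was found. Such matches are descriptions of letters and not of binding.

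Subunits of the proteasome, the protease that degrades ubiquitin-tagged proteins, differed less per gene but in large number. Of 37 subunit transcripts, none was apart from both placebo animals, 16 (43.2%, against 1.36% of all transcripts) were higher than in replicate 1 alone, and 2 were lower than in replicate 1 alone. Both AP_34d libraries exceeded both placebo libraries in 30 of the 37, against 16.4% of all transcripts. PLA_34d replicate 1 held the lowest value of the 10 libraries in 32 of the 37, against 17.7% of all transcripts. At an unadjusted p under 0.05, 16 were higher and 1 lower, against 2.58% and 2.99% of all transcripts, and 0 passed (smallest limma adjusted p 0.846). The median log2 difference was 0.76, with 1.07 against replicate 1 and 0.49 against replicate 2. The summed level of the list was 5551 and 6414 CPM in AP_34d and 2729 and 4053 CPM in PLA_34d. It ran from 3459 to 5840 CPM in the 6 other libraries. At 1 h, in other animals, both AP_1h libraries exceeded both PLA_1h libraries in 4 of the 37, against 13.4% of all transcripts, with a median log2 difference of 0.06.

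Among the most abundant subunits, Psmd2, a subunit at the base of the regulatory particle, stood at 347 and 626 CPM in AP_34d and at 207 and 212 CPM in PLA_34d, a log2 difference of 1.15 ± 0.41. Psmc1, an ATPase subunit, stood at 309 and 342 CPM against 134 and 221 CPM. The core subunits Psmb1 and Psmb7 stood at 357 and 247 CPM against 141 and 224 CPM and at 277 and 257 CPM against 111 and 214 CPM. In each of the 4 genes the groups did not overlap, and in Psmb1 and Psmb7 the gap to replicate 2 was small. The 2 lower subunits were Psmb8 and Psmb9, named after their values were seen, which are the interferon-induced subunits that replace core subunits in immune cells. Psmb8 stood at 10.4 and 7.17 CPM against 39.6 and 8.67 CPM, and Psmb9 at 4.30 and 3.73 CPM against 18.1 and 7.11 CPM, so both were highest in the placebo library with the lymphoid markers.

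Ucp3, Pdk4 and Angptl4, genes of fat use, were higher than in both placebo animals. Ucp3, the mitochondrial uncoupling protein of skeletal muscle (NM_013167, chromosome 1, 157896001 to 157909609), stood at 1177 and 528 CPM in AP_34d and at 28.3 and 69.7 CPM in PLA_34d. Its log2 difference was 4.12 ± 0.58 (SE), the largest among the transcripts higher than in both placebo animals, with a limma unadjusted p of 2.97e-05 and an adjusted p of 0.147. Pdk4, the kinase that inactivates pyruvate dehydrogenase (NM_053551, chromosome 4, 30235296 to 30245298), stood at 1946 and 1094 CPM against 92.4 and 363 CPM, a log2 difference of 2.98 ± 0.67 (limma adjusted p 0.756). Both Pdk4 values under acupuncture exceeded every other library of the series, whereas Ucp3 had reached 858 and 1008 CPM in the AP_1h animals. Ucp3 also stood at 403 and 399 CPM in the PLA_1h animals, against 36.3 and 103 CPM in RA_0. Angptl4, a secreted inhibitor of lipoprotein lipase, stood at 108 and 13 CPM against 3.14 and 2.99 CPM, so that its acupuncture animals differed more from each other than the lower one did from placebo.

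Besides these 3, none of the 28 transcripts of the fat list was in any class. Both AP_34d libraries were above both placebo libraries in 4, against 16.4% of all transcripts, and below them in 1, and the median log2 difference was 0.37, with 0.62 against replicate 1 and 0.18 against replicate 2. The summed level of the list was 12849 and 5688 CPM in AP_34d and 4324 and 6638 CPM in PLA_34d. It ran from 4855 to 8378 CPM in the 6 other libraries, so AP_34d replicate 1 alone stood above the series. Neither the 76 transcripts of oxidative phosphorylation nor the 24 of glycolysis and glycogen had a member apart from any placebo library. Their medians turned with the placebo animal, from 0.65 against replicate 1 to -0.54 against replicate 2 for oxidative phosphorylation and from 0.43 to -0.34 for glycolysis.

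G0s2, the inhibitor of the fat droplet lipase Pnpla2, was the lower transcript with the widest gap (NM_001009632, chromosome 13, 109121297 to 109122209). It stood at 4.88 and 4.18 CPM in AP_34d and at 34.9 and 29.3 CPM in PLA_34d, a log2 difference of -2.58 ± 0.38 (SE; limma unadjusted p 4.30e-05, adjusted p 0.147). In the 6 other libraries it ran from 17.4 to 57.0 CPM, so the acupuncture animals at 34 days were the lowest of the series. Pnpla2 itself, the lipase that starts the breakdown of stored fat, stood at 1893 and 221 CPM against 168 and 407 CPM. Its groups overlapped, and its direction turned without AP_34d replicate 1. Of the 10 transcripts of the lipolysis list, G0s2 alone was apart from both placebo animals, and Plin1, which coats fat droplets in adipocytes, was lower than in replicate 1 alone.

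Chac1 had the widest gap of all transcripts apart from both placebo animals. Chac1, an enzyme that degrades glutathione and is known as a target of the amino acid and unfolded protein response (NM_001173437, chromosome 3, 105870108 to 105873318), stood at 268 and 134 CPM in AP_34d and at 13.6 and 15.5 CPM in PLA_34d. Its log2 difference was 3.62 ± 0.56 (SE; limma unadjusted p 6.89e-05, adjusted p 0.177). The placebo animals at 34 days held less Chac1 than any of the 6 other libraries, which ran from 35.4 to 392 CPM. Other genes of that response did not share the pattern. Of the 11 transcripts of its list, Chac1 alone was apart from both placebo animals, while Asns, Psat1, Mthfd2 and Aldh18a1 were lower than in replicate 1 alone and Slc7a5 and Ppp1r15a higher than in replicate 2 alone.

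The metallothioneins Mt1a and Mt2A, small proteins that bind zinc and copper, lie side by side on chromosome 19 (rn4, 11261631 to 11262647 and 11267811 to 11268585). Mt1a stood at 53.5 and 55.4 CPM in AP_34d and at 2.92 and 8.10 CPM in PLA_34d, and Mt2A at 63.7 and 93.1 CPM against 1.79 and 12.2 CPM. The groups were far apart, with log2 differences of 3.22 ± 0.94 and 3.68 ± 0.91 (limma adjusted p 0.846 for both), yet the range over the series was wider still, from 4.77 to 426 CPM for Mt1a and from 6.92 to 618 CPM for Mt2A in the 6 other libraries. The 250 bases before each start (GRCr8, chr19:10832976-10833225 and chr19:10838709-10838958, both on the - strand) are shown because both hold several copies of the core of the metal response element, TGCGCNC or TGCACNC on either strand, in capitals.
Mt1a: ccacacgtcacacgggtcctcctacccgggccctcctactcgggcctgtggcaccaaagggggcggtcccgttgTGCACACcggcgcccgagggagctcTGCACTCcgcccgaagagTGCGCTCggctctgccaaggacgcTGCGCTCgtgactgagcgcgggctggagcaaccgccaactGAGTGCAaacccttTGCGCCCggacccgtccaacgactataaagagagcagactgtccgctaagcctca
Mt2A: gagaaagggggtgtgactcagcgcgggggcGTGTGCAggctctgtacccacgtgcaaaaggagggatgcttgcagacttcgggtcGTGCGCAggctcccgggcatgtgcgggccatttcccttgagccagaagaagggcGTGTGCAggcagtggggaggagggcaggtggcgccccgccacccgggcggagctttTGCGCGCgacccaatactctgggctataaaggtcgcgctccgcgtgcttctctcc
Mt1a, listed there as Mt1, held 6 matches and Mt2A 4. Single matches were common. TGCGCNC stood in 8 of the 34 promoters of the higher transcripts (23.5%) and in 27.73% of the promoters of included genes (15.67% of all promoters), and TGCACNC in 6 of the 34 (17.6%), in 13.62% and in 13.24%.

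Hmox1, which degrades haem and is a known target of the oxidative stress factor Nrf2, stood at 40.4 and 74.2 CPM in AP_34d and at 16.2 and 13.2 CPM in PLA_34d, a log2 difference of 1.84 ± 0.66. With Mt1a it was 1 of 2 among 15 oxidative stress transcripts (13.3%) that were higher than in both placebo animals, against 0.463% of all transcripts. The median of that list was 0.51, with 0.66 against replicate 1 and 0.50 against replicate 2. The median of all transcripts was 0.01, 0.00 and 0.02. Of 14 glucocorticoid-responsive transcripts, Mt2A (7.14%, against 0.463% of all) was higher than in both placebo animals. Cebpb and Errfi1 (14.3%, against 1.36% of all) were higher than in replicate 1 alone. The neighbours Mt1a and Mt2A were each placed in a different list, so these results do not stand for separate responses. The median of the glucocorticoid list was 0.68, with 0.77 against replicate 1 and 0.33 against replicate 2.

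A cytokine receptor had the smallest p of the comparison. Tnfrsf12a (Fn14), the receptor of the cytokine TWEAK (NM_181086, chromosome 10, 12940334 to 12942343), stood at 58.0 and 50.9 CPM in AP_34d and at 6.51 and 9.81 CPM in PLA_34d. Its replicates lay close together, and its log2 difference of 2.62 ± 0.36 (SE) was the one with that p (limma unadjusted p 2.32e-05, adjusted p 0.147). Tnfsf12, its ligand, stood at 28.7 and 19.4 CPM against 19.5 and 24.4 CPM, so the groups overlapped. Of 11 transcripts of the TWEAK and NF-kB list, Tnfrsf12a alone was in any class.

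Macrophage genes gave different answers against the 2 placebo animals. Gpnmb, a glycoprotein of lysosome-rich macrophages, stood at 78.1 and 127 CPM in AP_34d and at 19.1 and 6.68 CPM in PLA_34d. Cd163, a scavenger receptor of resident macrophages, stood at 18.2 and 19.9 CPM against 7.07 and 3.70 CPM, and Spp1, which encodes osteopontin, at 5.08 and 3.29 CPM against 0.449 and 0.426 CPM, which is close to the limit of detection. These 3 of the 17 macrophage transcripts (17.6%, against 0.463% of all transcripts) were higher than in both placebo animals. But Csf1r, Lyz2 and Aif1 (17.6%, against 6.42% of all) were lower than in replicate 1 alone. Fcgr2a, Fcgr2b and Tyrobp (17.6%, against 0.806% of all) were higher than in replicate 2 alone. Spp1 met the inclusion rule through the AP_34d libraries only. The list median was -0.53 against replicate 1 and 1.00 against replicate 2. The summed level of all macrophage markers was 386 and 308 CPM in AP_34d and 411 and 114 CPM in PLA_34d, and its part in the 3 results was not tested.

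Among the other higher transcripts, Emb, a membrane partner of monocarboxylate transporters, stood at 20.3 and 21.2 CPM in AP_34d and at 3.48 and 1.42 CPM in PLA_34d. Mrgprg, an orphan receptor of the Mas-related family that is best known from sensory neurons, stood at 10.5 and 7.02 CPM against 1.12 and 0.426 CPM, and at no more than 1.75 CPM in the 6 other libraries. It was thus found at a clear level only in the acupuncture animals at 34 days, with a log2 difference of 2.47 ± 0.51 (limma adjusted p 0.683). Of the 46 higher transcripts, 3 (6.52%, against 1.82% of all) met the inclusion rule through the AP_34d libraries only. Mrgprg and Spp1 were among them, and such transcripts had little room to be lower under acupuncture. Palmd, the cytoskeletal protein palmdelphin, differed less in size but with little spread, at 113 and 134 CPM against 40.8 and 51.5 CPM, a log2 difference of 1.40 ± 0.29 (limma adjusted p 0.683). Arntl, the clock activator now called Bmal1, stood at 24.8 and 17.5 CPM against 7.07 and 5.69 CPM, and the hour at which the animals were sampled is not given in the sources used here.

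Of the 31 transcripts lower than in both placebo animals, 10 (32.3%) met the inclusion rule through the PLA_34d libraries only. The 31 shared no list to the same extent, and 26 of them belonged to none. Dgkz, a kinase that removes diacylglycerol (NM_031143, chromosome 3, 76312721 to 76342603), stood at 38.9 and 23.9 CPM in AP_34d and at 114 and 111 CPM in PLA_34d, a log2 difference of -1.85 ± 0.30 (SE; limma unadjusted p 1.15e-04, adjusted p 0.236). The PLA_1h animals, at 43.6 and 33.7 CPM, held about as little Dgkz as the AP_34d animals. RA_0, at 91.1 and 89.3 CPM, and AP_1h, at 82.4 and 77.7 CPM, held more. At 1 h the log2 difference between acupuncture and placebo was thus of the other sign, 1.04. Ubd (FAT10), a ubiquitin-like protein induced by interferon and tumour necrosis factor, stood at 8.20 and 1.79 CPM in AP_34d against 23.7 and 25.4 CPM in PLA_34d. Its log2 difference was -2.33 ± 0.49 (limma adjusted p 0.683). Its level in RA_0, 2.62 and 3.86 CPM, lay between the acupuncture values. Sec14l5, of a family of lipid-binding proteins, stood at 2.93 and 5.98 CPM against 14.9 and 27.4 CPM, below every other library of the series, a log2 difference of -2.02 ± 0.40 (limma adjusted p 0.683).

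Several of the lower transcripts encode membrane proteins. Crhr2, the receptor of urocortins, stood at 9.18 and 7.17 CPM in AP_34d and at 26.4 and 58.4 CPM in PLA_34d. Atp1b4, a muscle protein related to sodium pump subunits, stood at 12.5 and 3.44 CPM against 39.1 and 45.2 CPM, and Ros1, a receptor tyrosine kinase, at 6.84 and 1.79 CPM against 17.8 and 22.5 CPM. In each the placebo animals lay well above both acupuncture animals, and the 6 other libraries ran from 2.24 to 32.4 CPM for Crhr2, from 7.03 to 75.0 CPM for Atp1b4 and from 5.73 to 14 CPM for Ros1, where both placebo animals were above all of them. Elmo3, a protein of cell engulfment, stood at 1.76 and 1.2 CPM against 8.19 and 6.11 CPM. Elmo3 and Mir3582 overlap transcripts of other symbols, so with strand not stated their counts are uncertain. Cabp4, a calcium-binding protein, had 1 and 2 reads in AP_34d (0.195 and 0.299 CPM) and 62 and 15 reads in PLA_34d (6.95 and 2.13 CPM).

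**Figure D2:**
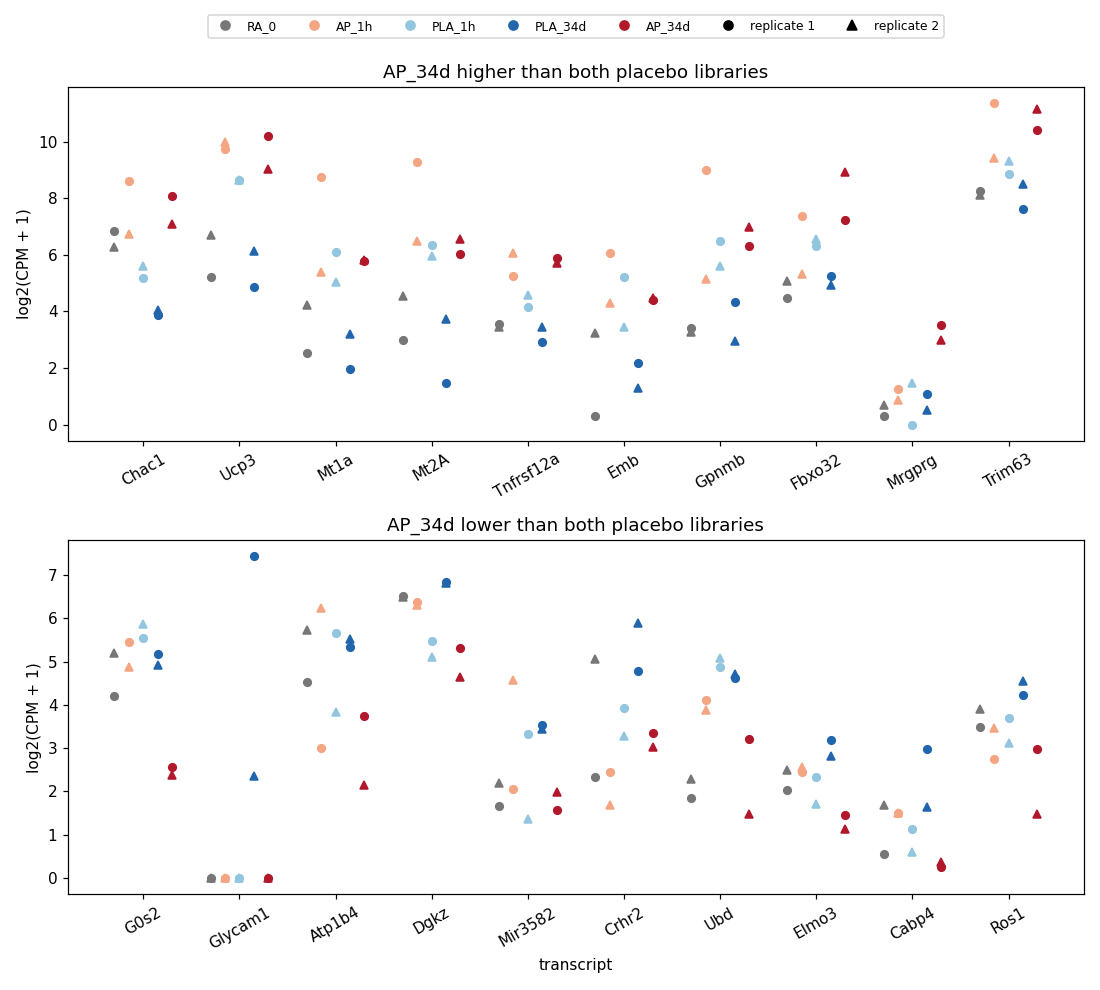
The log2(CPM + 1) value of 10 transcripts that were higher (upper panel) and 10 that were lower (lower panel) in AP_34d than in both placebo animals is drawn for each of the 10 libraries, with circles for replicate 1, triangles for replicate 2 and colours for groups. Chac1, Ucp3 and Tnfrsf12a are high and G0s2 low in both AP_34d libraries, while Glycam1 was read in the PLA_34d libraries alone, at 172 and 4.12 CPM.

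Most of what was lower against PLA_34d replicate 1 alone was high in that library. It held the highest value of all 10 libraries in 603 of the 637 transcripts (94.7%), against 18.7% of all transcripts, although the class itself favours such values. The median log2 difference of the class was -1.73 against replicate 1 and -0.14 against replicate 2. Against replicate 2, both AP_34d libraries were lower in 294 of the 637 and higher in 167. Of all 9927 transcripts, 2746 were lower and 3062 higher in that way. Of the 637, 587 were in no list. In 109 of them (17.1%), against 4.37% of all transcripts, the inclusion rule was met through the PLA_34d libraries only, which left little room to be higher under acupuncture.

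The widest gaps in this class belonged mainly to leukocyte genes. Ms4a1 (CD20), the surface marker of B cells, stood at 50.8 CPM in PLA_34d replicate 1 and at 1.14 CPM in replicate 2, with 1 read (0.195 CPM) and 0 reads in AP_34d. Ptprcap, which associates with the leukocyte phosphatase CD45, stood at 57.1 and 2.42 CPM in the placebo libraries against 0.977 and 0.598 CPM, and Siglec1, a receptor of lymph node macrophages, at 72.1 and 1.99 CPM against 1.76 and 1.05 CPM in AP_34d. In all of these the second placebo animal lay near the acupuncture animals and far below the first. Acap1, a regulator of Arf GTPases in membrane recycling, followed the same pattern, at 65.8 and 1.71 CPM against 0.195 and 0.747 CPM.

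Glycam1 and Prf1, although lower than in both placebo animals, belonged with these genes by their levels. Glycam1, a mucin-like protein of the vessels of lymph nodes, stood at 172 CPM in PLA_34d replicate 1 and at 4.12 CPM in replicate 2. No other library of the series held a read of it, so no fold is given. Prf1, the perforin of cytotoxic lymphocytes, had 170 reads (19.1 CPM) and 14 reads (1.99 CPM) in placebo and 1 and 2 reads in AP_34d. Tnfrsf14, Il21r and Ccdc69, in no list and also lower than in both, were likewise far higher in replicate 1. In PLA_34d they stood at 90.6 and 1.99 CPM, 75.8 and 2.27 CPM, and 11.3 and 1.42 CPM. In AP_34d they stood at 0 and 0.299 CPM, 0.195 and 0.598 CPM, and 0.195 and 0.149 CPM. The inclusion rule was met by 8 of 22 B cell and lymph node transcripts, 4 of them through the PLA_34d libraries only, and by 10 of 24 T cell transcripts, 6 of them in that way. Such transcripts had little room to be higher under acupuncture, so no count or median of differences is given for these lists, and their summed levels above cover all transcripts of each list.

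Antigen presentation followed the same library. Of 9 transcripts of MHC class II, 7 (77.8%, against 6.42% of all transcripts) were lower than in replicate 1 alone, and the median changed sign, from -2.32 against replicate 1 to 0.56 against replicate 2. Cd74, the class II invariant chain and the most abundant of the list, stood at 215 and 101 CPM in AP_34d and at 680 and 95.2 CPM in PLA_34d. RT1-Bb, a class II beta chain, stood at 43.6 and 16.6 CPM against 87.0 and 3.13 CPM and was higher than in replicate 2 alone, and it overlaps a transcript of another symbol. Of 26 interferon and immunoproteasome transcripts, 8 (30.8%) were lower than in replicate 1 alone and 1, Ubd, was lower than in both. Their median was -0.88 against replicate 1 and -0.12 against replicate 2. Through the PLA_34d libraries only, 1 of the 9 and 2 of the 26 met the inclusion rule. The part of the lymphoid markers in these results was not tested.

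**Figure D3:**
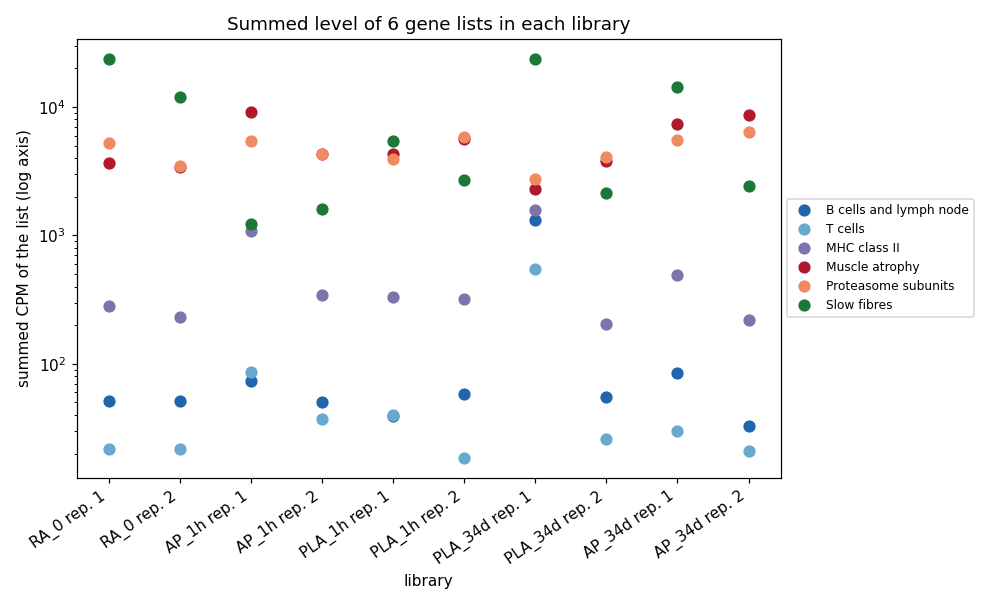
The summed CPM of 6 gene lists (log axis) is drawn for each of the 10 libraries. The B cell and lymph node list and the T cell list stand at 1311 and 545 CPM in PLA_34d replicate 1 and at no more than 86.5 CPM elsewhere, and the muscle atrophy list stands at 7314 and 8701 CPM in AP_34d against 2305 and 3828 CPM in PLA_34d.

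The 135 transcripts that were higher than in placebo replicate 1 alone had a median log2 difference of 1.36 against replicate 1 and 0.57 against replicate 2, and 108 of them were also above replicate 2 in both AP_34d libraries. Of all 9927 transcripts, 3062 were above replicate 2 in that way. Replicate 1 held the lowest value of the 10 libraries in 108 of the 135 (80.0%), against 17.7% of all transcripts, although the class itself favours such values. Transcripts of the atrophy and proteasome lists made up 21 of the 135 (15.6%), against 0.604% of all. Mical2, an enzyme that oxidises actin, stood at 113 and 147 CPM in AP_34d and at 16.9 and 73.1 CPM in PLA_34d. Arrdc2, an arrestin-related adaptor, stood at 205 and 124 CPM against 23.6 and 90.1 CPM, and Prima1, the anchor of acetylcholinesterase in membranes, at 17.2 and 80.5 CPM against 3.93 and 12.2 CPM. Ppp1r14c, an inhibitor of protein phosphatase 1, stood at 25 and 35.4 CPM against 2.69 and 15.8 CPM. Phlda3, a target of p53, stood at 233 and 180.0 CPM against 46.7 and 177 CPM. For these genes the second placebo animal lay below both acupuncture animals, by less than the class requires and least of all in Phlda3.

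The transcripts apart from placebo replicate 2 alone were the mirror case. Replicate 2 held the lowest of the 10 values in 40 of the 80 higher transcripts, against 6.06% of all, and the highest in 39 of the 70 lower ones, against 4.75%. These classes favour such values as well. Mettl21c, a methyltransferase of skeletal muscle, stood at 37.7 and 25.4 CPM in AP_34d and at 61.7 and 4.26 CPM in PLA_34d, and Disp2 at 5.86 and 5.38 CPM against 8.30 and 0.426 CPM. The AP_34d values lay between the placebo animals in both, so the direction depended on the animal. Neu2, a cytosolic sialidase, stood at 12.3 and 4.03 CPM against 22.1 and 65.7 CPM, RGD1307461 at 35.4 and 22.9 CPM against 58.2 and 159 CPM, and Iqcg at 0.391 and 0.896 CPM against 1.57 and 6.97 CPM. In these 3 both placebo animals were above both acupuncture animals.

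Fibre type also separated the placebo animals. Slow fibre transcripts summed to 14255 and 2445 CPM in AP_34d and to 23535 and 2142 CPM in PLA_34d, so each group held 1 library rich and 1 poor in slow fibres. The median log2 difference of the 14 slow fibre transcripts was -1.78 against replicate 1 and 1.53 against replicate 2. Myh7, the slow myosin heavy chain, stood at 4064 and 813 CPM in AP_34d and at 11934 and 499 CPM in PLA_34d. The 10 skeletal muscle transcripts had a median of 1.07 against replicate 1 and -0.08 against replicate 2, and the 14 fast fibre transcripts 1.01 and -0.43. The part of muscle content and fibre type in the differences of other lists was not tested.

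**Figure D4:**
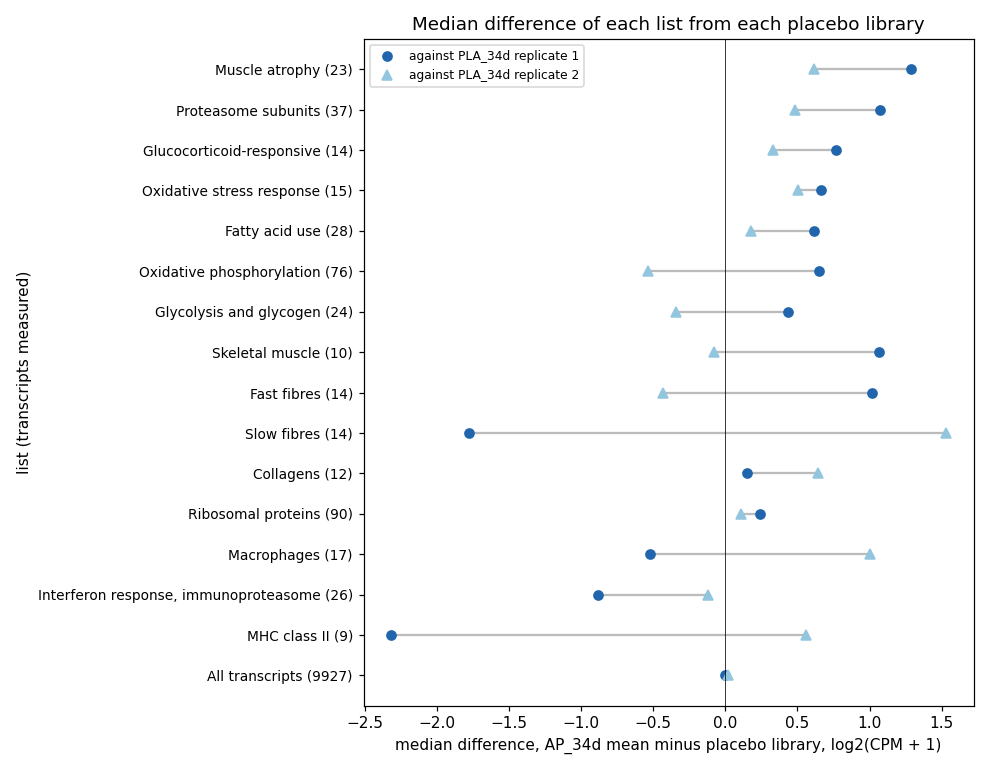
For each gene list, the median difference of the AP_34d mean from PLA_34d replicate 1 (circle) and from replicate 2 (triangle) is drawn on the log2(CPM + 1) scale, with the number of measured transcripts in brackets. The atrophy, proteasome, glucocorticoid, oxidative stress, fatty acid, collagen and ribosomal protein lists are above 0 against both placebo animals, while the slow fibre, fast fibre, skeletal muscle, glycolysis, macrophage, MHC class II and oxidative phosphorylation lists change sign with the animal.

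The gene sets that the study used for wound healing and inflammation held small counts of the transcripts apart from both placebo animals. For the higher transcripts these were larger shares than that of all transcripts, except in the early sets. The sets can share transcripts, so 1 transcript can count in several. Higher than in both were 4 of 261 transcripts of the inflammatory response (1.53%), 4 of 216 of wound healing (1.85%), 8 of 402 of the response to wounding (1.99%) and 3 of 206 of the wide epithelial to mesenchymal set (1.46%), against 0.463% of all transcripts. The wound-related version of that set held 3 of 57 (5.26%). None was in the early mechanical set of 35 or the early healing set of 64. Lower than in both was 1 transcript each in early healing and in the response to wounding. Lower than in replicate 1 alone were 14.6% of the inflammatory set, 14.3% of the early mechanical set, 10.9% of early healing, 10.7% of the wide set, 9.72% of wound healing, 8.71% of the response to wounding and 5.26% of the wound-related version, against 6.42% of all transcripts. The median difference of each set lay between -0.10 and 0.03.

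Levels in the other animals placed these transcripts in the course of the experiment. Both AP_34d libraries were above both RA_0 libraries in 43 of the 46 higher transcripts, against 16.7% of all, and above all 6 other libraries in 16 (34.8%), against 2.89%. Of the 31 lower transcripts, AP_34d was below RA_0 in 22, against 15.3% of all, and below all 6 other libraries in 13 (41.9%), against 2.6%. The AP_34d values chose these transcripts, so the counts describe them only. The 1 h animals played no part in the choice. There, both AP_1h libraries were above both PLA_1h libraries in 13 of the 46 (28.3%), against 13.4% of all, and below them in 3, with a median log2 difference of 0.38. For the 31 lower transcripts, AP_1h was below PLA_1h in 7 (22.6%), against 16.6% of all, and above in 5, with a median of -0.12. The difference between acupuncture and placebo did not pass a test of change between 1 h and 34 days for any transcript (limma interaction, 0 calls, and 22 by DESeq2).

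Of the named transcripts, Ucp3, Chac1, Tnfrsf12a, G0s2 and Pdk4 were called by DESeq2 and also by limma without PLA_34d replicate 2, where placebo replicate 1 stands alone, and so were the leukocyte genes Ms4a1, Acap1, Ptprcap, Siglec1 and Prf1. Across the alternatives, adjusted p-values of the first 5 lay in the range from 1.08e-08 to 0.706 for Ucp3, from 2.32e-07 to 0.706 for Chac1, from 2.19e-06 to 0.706 for Tnfrsf12a, from 9.54e-06 to 0.706 for G0s2 and from 0.00888 to 1.00 for Pdk4, by limma, edgeR or DESeq2. Their direction held in every one.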

How the data were processed

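Polyadenylated RNA was sequenced from muscle of 10 rats in 5 groups of 2. According to the labels and the methods of the study, the authors trimmed reads with cutadapt 1.2.1, aligned them to rn4 with Bowtie2 2.1.0 and counted them per transcript with HTSeq 0.5.4p3. The deposited signal is CPM with edgeR 3.4.2 TMM factors. Whole reads came out for 100% of values within 0.01 reads, so reads could be recovered for count tests. Whether counting used strand is not given in the sources used here.

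Here log2(CPM + 1) was fitted with limma 3.58.1 (R 4.3.3, eBayes with trend, 1 mean per group, all 10 libraries, 10259 transcripts that reached 1 CPM in both libraries of a group; 5 residual and 5.14 prior degrees of freedom), with Benjamini-Hochberg adjustment and 0.05 as threshold. Fold changes on this scale understate low transcripts. limma-voom, edgeR 4.0.16 and DESeq2 1.42.0 on recovered reads were alternatives, besides other pseudocounts, scalings, filters and left-out libraries. The smallest p of an exact permutation test of 2 against 2 is 0.333, and no such test was used. The limma fit was tried on simulated counts in which 200 transcripts were changed in AP_34d. It recovered 91 of them (45.5%) at 4-fold, with 10 false calls, and 186 (93%) at 16-fold, with 13 false calls. A result of 0 calls therefore does not exclude changes of 4-fold. Each library came from its own rat and RNA was extracted as 1 batch, per the labels.

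The text names the 10 transcripts per direction apart from both placebo libraries with the widest gap, 5 and 3 per direction apart from replicate 1 or 2 alone, the 4 per direction with the smallest p, list members apart from both and up to 4 abundant members of a list. Psmb8, Psmb9 and other list members, and Tnfrsf14, Il21r and Ccdc69, were named after their values were seen. Some transcripts that these rules name are not reported here. The transcripts, classes and gene lists were chosen with earlier results of these data known.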

Additional observations from a re-analysis of the deposited data

How the results depend on the processing

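Of the 57 named transcripts, 1403 of 1475 values under up to 26 settings kept direction and side of the threshold, 58 passed it and 14 changed sign. The sign changed for Mettl21c (-0.072 by edgeR, -0.045 by DESeq2, and -0.97 to 2.60 with 1 library left out), Disp2 (-0.49 to 2.21 with 1 library left out), RT1-Bb (-0.59 by edgeR, -0.56 by DESeq2, -0.12 without AP_34d replicate 1, and -1.65 to 2.76 with 1 library left out), Pnpla2 (-0.25 without AP_34d replicate 1 to 2.85 without replicate 2) and Cd74 (-2.20 without PLA_34d replicate 2 to 0.62 without replicate 1). Of 245 list medians, 219 stayed within the spread between replicates.

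Calls were 0 by limma, voom and edgeR and 87 by DESeq2, and ran from 0 to 453 with 1 library left out, all above 0 without PLA_34d replicate 2 (174, or 453 with the filter applied again). Interaction calls were 22 by DESeq2 and 0 to 105 with 1 library left out. Unadjusted p under 0.05 held for 561 transcripts of the fit, 863 without a filter, 358 in the 4 libraries alone and 278 to 1582 with 1 library left out (278 without PLA_34d replicate 1, or 285 with the filter applied again; 1113 and 1582 without replicate 2). The study's rule held for 366, for 602 by edgeR, 628 by DESeq2, 216 with a pseudocount of 4 and 250 to 1209 with 1 library left out (1033 and 1209 without PLA_34d replicate 2). Higher transcripts were 38.8% of the 366, 29.6% by edgeR, 30.6% by DESeq2, 19.4% without TMM factors, 51.9% with a pseudocount of 4, 51.6% at a mean of at least 5 CPM, and 17.8% (without PLA_34d replicate 2, filter applied again) to 59.3% (without AP_34d replicate 1) with 1 library left out.

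The classes, in the order both higher, both lower, replicate 1 alone higher and lower, replicate 2 alone higher and lower, held 167, 193, 592, 1074, 283 and 205 transcripts at 1.5-fold and 13, 2, 22, 305, 19 and 8 at 3-fold. With 1 AP_34d library left out they ran from 153 to 249, 148 to 313, 265 to 722, 915 to 1158, 236 to 374 and 152 to 365. Replicate 1 alone lower held 1055 without a filter, 387 at a mean of at least 5 CPM, 423 with a pseudocount of 4 and 1182 without TMM factors. Without those factors the median of all transcripts moved to -0.19, both higher held 23 and replicate 1 alone higher 30. Replicate 1 alone higher held 233 after quantile normalization. Both lower held 86 with a pseudocount of 0.25, 10 with 4, and 55 without the 20 most abundant transcripts. Replicate 2 alone higher held 138 with a pseudocount of 0.25 and 33 with 4, and replicate 2 alone lower 30 with 4. The cause was not tested.

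With the replicate number as a block, limma called 0 transcripts, with 540 at an unadjusted p under 0.05. Deviations of same-numbered libraries correlated at -0.46 to 0.45 (-0.19 for AP_34d and PLA_34d), so the numbers do not pair the animals. With 5 to 9 reads per CPM, transcripts near 1 CPM rest on few reads.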
